A study of Mus musculus with 221 samples.

Results

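The upper layer factor genes Cux1, Cux2, Pou3f1, Pou3f2, Pou3f3 and Rorb were followed through single cells of the embryonic mouse cortex. These 6 were picked by name from a table of 23244 features, and all 6 were in it. The cells were 221 from the microdissected medial neocortex of C57BL/6J mice at embryonic stage E18.5, in 2 pools of 8 neocortices each, and animals cannot be told apart within a pool. No cell was treated and no mutant allele is labelled, so the groups are cell classes that share the same pools. The labels list the sex as female, a word their protocol uses for the pregnant dams. The title of the series concerns Hopx-dependent basal radial glia, stem cells of the developing cortex that have left the ventricular surface.

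The neocortex is built from the inside out, so neurons born last settle in the upper layers, where many send axons through the corpus callosum to the other hemisphere. Cux1 and Cux2 are homeodomain proteins with CUT repeats that shape dendrites and synapses of upper layer neurons. Pou3f2 (Brn2) and Pou3f3 (Brn1) carry a POU domain and act redundantly in the making and migration of upper layer neurons, while their relative Pou3f1 (Oct6) is best known from myelinating Schwann cells. Rorb is a nuclear receptor of layer 4, where thalamic axons end.

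Each cell was put in a class by the level of a few marker genes in TPM, a share of transcripts scaled to the same sum in every cell and corrected for transcript length. Progenitors (62 cells) had at least 4 of 8 radial glia markers at 10 TPM or more (radial glia-gated, 41 cells) or, failing that, Eomes at 10 TPM or more (Eomes-positive, 21 cells). The radial glia gate came first, so 13 of the 41 radial glia-gated cells also had Eomes at 10 TPM or more. Newborn neurons (49 cells) were other cells with Neurod1 at 10 TPM or more. Neurons (95 cells) were the remaining cells with Neurod6 at 100 TPM or more. The last 15 cells, called other cells, met none of these limits. Each class drew on both pools, with 32 and 30 progenitors, 25 and 24 newborn neurons, and 56 and 39 neurons in pools 1 and 2. The progenitor label was only partly borne out by the markers. Neurod6, a gene of postmitotic excitatory neurons, reached 100 TPM in 50 of 62 progenitors. Its median level was 1155 TPM in progenitors, 1922 TPM in newborn neurons and 1645 TPM in neurons. Interneuron markers (at least 3 of 9 at 10 TPM or more) were found in 6 progenitors, 4 newborn neurons, 9 neurons and 11 of the 15 other cells. Of 4 endothelial markers, 0 were above the floor in any class. Of 4 microglia and 4 oligodendrocyte precursor markers, at least 3 of a kind were at 10 TPM or more in 2 cells, both radial glia-gated. Both cells met this limit for oligodendrocyte precursor markers, and 1 of them met it for microglia markers too. In radial glia-gated cells the summed levels reached 6541 TPM for microglia and 2229 TPM for oligodendrocyte precursors. In the other classes the summed levels reached at most 59.1 TPM for microglia and 347 TPM for oligodendrocyte precursors. Alas2, the 1 red blood cell marker in the table, reached 329 TPM in neurons, and 4 meningeal fibroblast markers summed to at most 82.4 TPM. Between 2146 and 6727 genes were detected per cell (median 4035). Read numbers are not in the tables, so the depth of each cell is unknown.

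In each cell 16517 to 21098 features shared the lowest value, which was taken as the floor of genes without signal, a reading the labels do not state. This floor lay between 1.33 and 3 TPM, and a gene counted as detected when it was above the floor of its cell. The 95% intervals of shares are exact (Clopper-Pearson) and hold no error but that of counting.

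The 6 genes differ in structure. On GRCm38 (GENCODE annotation), Cux1 spans chr5:136248135-136567490 on the minus strand and Cux2 spans chr5:121856366-122050102 on the same strand, with 24 and 23 exons in their longest coding transcripts. Rorb lies at chr19:18930605-19111196 (minus strand, 10 exons). Each Pou3f gene is a single exon. Pou3f1 lies at chr4:124656807-124660655 (plus strand), Pou3f2 at chr4:22482780-22488366 (minus strand) and Pou3f3 at chr1:42695768-42703176 (plus strand). The Cux1 locus also encodes CASP, a Golgi protein made from the same early exons, and the deposited value per gene does not separate the products. Exons of the antisense genes Gm16599 and Gm2164 overlap those of Cux1 and Pou3f1. The library kit as labelled does not mark strand, so their reads cannot be told apart from those of the 2 members there. Among the coding sequences, the longest identical run was 38 bases, between Pou3f1 and Pou3f2, inside the stretch for the POU-specific domain. It is shown as the longest sequence that any pair of members shares:
Pou3f1 and Pou3f2: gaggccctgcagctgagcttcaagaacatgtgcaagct
The longest run was 29 bases between Pou3f1 and Pou3f3, 23 bases between Pou3f2 and Pou3f3, and 23 bases between Cux1 and Cux2. No stretch of 50 bases was identical between any pair of the 6 coding sequences.

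RefSeq promoters (GRCm38.p6) were at hand for 5 of the 6 members, all but Pou3f1. The promoters of Pou3f2 and Pou3f3 are shown because these 2 were the Pou3f genes most often detected together, in 136 of 221 cells. Each line gives the 250 bases before the transcription start, 5′ to 3′ on the strand of the gene, and capitals mark CCAAT, searched on both strands (ATTGG on the other):
Pou3f2 (chr4:22488367-22488616, minus strand): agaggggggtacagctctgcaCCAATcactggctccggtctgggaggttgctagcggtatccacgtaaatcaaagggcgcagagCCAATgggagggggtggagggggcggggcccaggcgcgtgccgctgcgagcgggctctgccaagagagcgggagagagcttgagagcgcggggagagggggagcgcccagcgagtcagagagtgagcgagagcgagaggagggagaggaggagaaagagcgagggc
Pou3f3 (chr1:42695518-42695767, plus strand): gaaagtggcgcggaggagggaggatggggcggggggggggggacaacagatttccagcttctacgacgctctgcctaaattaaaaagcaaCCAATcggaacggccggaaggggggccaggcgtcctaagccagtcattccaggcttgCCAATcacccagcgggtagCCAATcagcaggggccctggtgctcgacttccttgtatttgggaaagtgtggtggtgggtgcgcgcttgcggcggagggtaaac
The Pou3f2 promoter held 2 CCAAT matches, which began at bases -229 and -166 counted from the start. The Pou3f3 promoter held 3, at bases -160, -103 and -84. Among all 32817 promoter windows of the same length, 33.8% held at least 1 match, 10.1% at least 2 and 2.79% at least 3. The main promoter of Rorb held 1 match, and those of Cux1 and Cux2 held 0. The octamer ATGCAAAT (ATTTGCAT on the other strand), a classic POU motif, was in 0 of the 7 windows of the members and in 1.60% of all windows. A match is only a description of these letters.

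Across all 221 cells the members fell into 3 tiers of mean level, which detection did not follow throughout. Cux1 had the highest mean, 186 TPM, and was detected in 165 cells (74.7%, interval 68.4 to 80.3%), fewer than the 170 with Pou3f2. The Pou3f genes followed. Pou3f2 had a mean of 61.8 TPM and was detected in 170 cells, Pou3f1 had 32.2 TPM in 131 cells, and Pou3f3 had 30 TPM in 164 cells. Cux2 (7.96 TPM, 67 cells) and Rorb (3.90 TPM, 19 cells) came last, and their median cells, at 1.92 and 1.84 TPM, lay in the range of the floor. The order of the means was the same in both pools. Pou3f1 and Pou3f3 had means of 31.1 and 31 TPM in pool 1 and 33.6 and 28.8 TPM in pool 2, so this pair was not separated beyond the spread between pools.

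**Figure D1:**
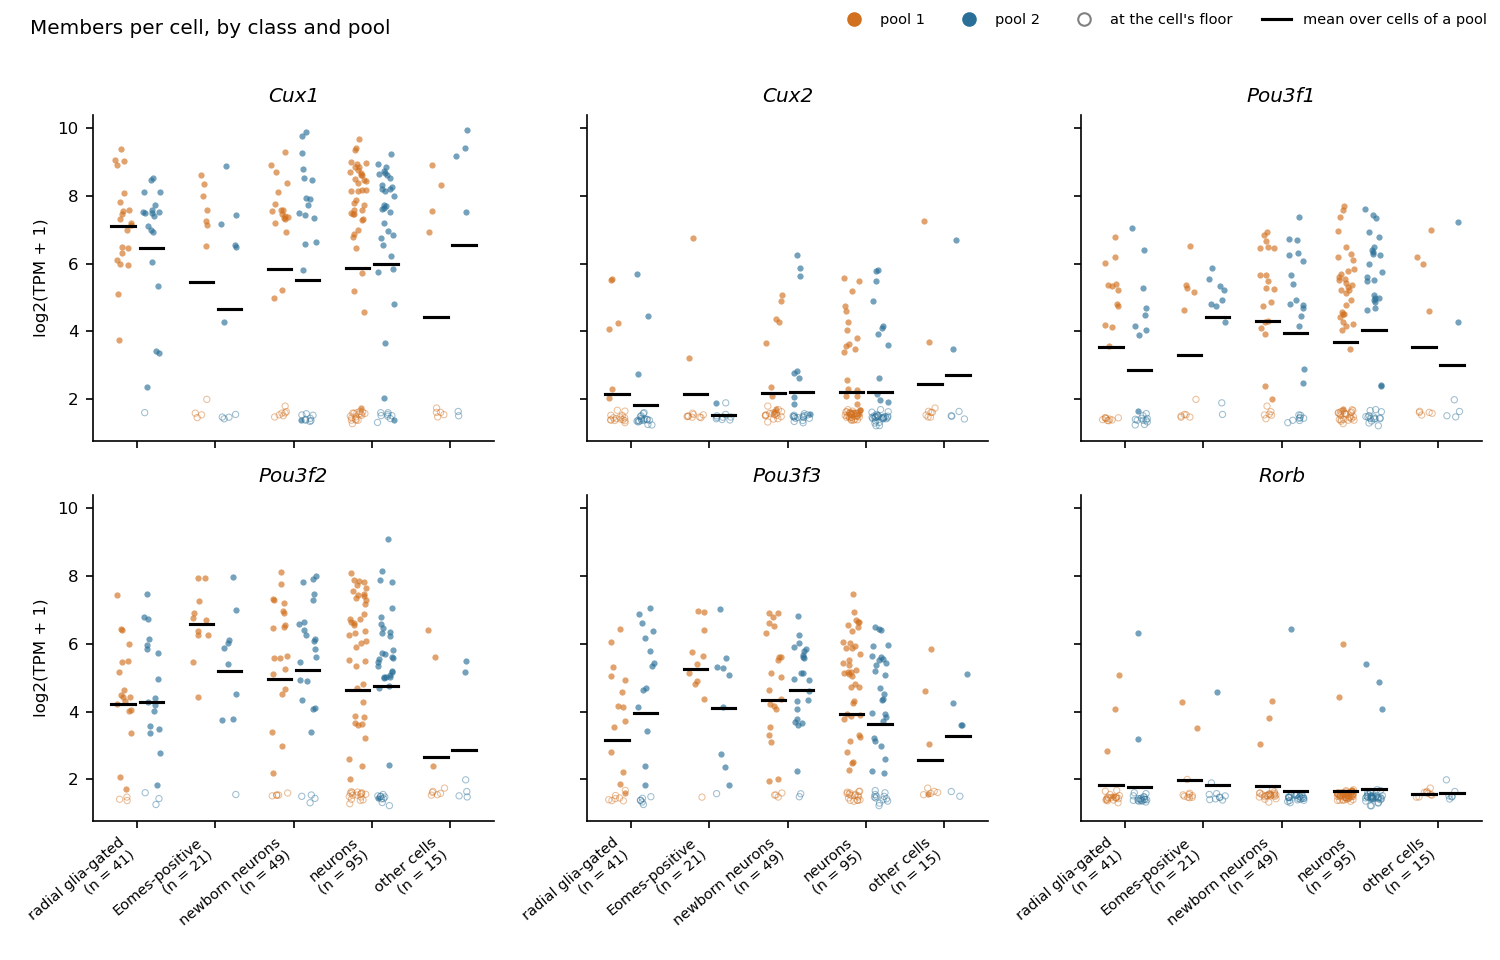
Level of each member in every cell as log2(TPM + 1), by class; filled points are cells above their floor, open points cells at it, and black lines the mean over the cells of a pool. Cux1 splits into cells near the floor and cells far above it in every class except the radial glia-gated progenitors, where 40 of 41 cells are above the floor, whereas most cells are at the floor for Cux2 and Rorb.

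Cux1 was detected in 53 of 62 progenitors (85.5%), 34 of 49 newborn neurons (69.4%) and 70 of 95 neurons (73.7%). In progenitors its level ran from 1.69 TPM in the lowest cell to 656 TPM in the highest, with a median of 139.8 TPM. In newborn neurons it ran from 1.55 to 944 TPM (median 162 TPM), and in neurons from 1.44 to 820.3 TPM (median 173 TPM). The classes overlapped over nearly their whole range, and each held cells at the floor. The mean log2(TPM + 1) of progenitors was 6.55 in pool 1 and 5.86 in pool 2, against 5.86 and 5.99 in neurons. The difference between progenitors and neurons was 0.28 ± 0.66 (log2, SE; 95% interval -1.17 to 1.74; limma adjusted p = 0.968), with opposite signs in the 2 pools.

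Cux2 was detected least often in progenitors, in 12 of 62 cells (19.4%, interval 10.4 to 31.4%), against 18 of 49 newborn neurons (36.7%, 23.4 to 51.7%) and 33 of 95 neurons (34.7%, 25.3 to 45.2%). By pool, the share was 25% and 13.3% in progenitors, 36% and 37.5% in newborn neurons, and 37.5% and 30.8% in neurons. The progenitor share was thus below both neuronal shares in each pool, while the intervals overlapped. At 10 TPM or more in place of the floor, Cux2 was found in 11.3% of progenitors, 16.3% of newborn neurons and 20% of neurons. Where Cux2 was detected its level was low, with a median of 16.9 TPM in progenitors, 6.04 TPM in newborn neurons and 11.2 TPM in neurons. The mean log2(TPM + 1) was 2.16 and 1.75 in progenitors and 2.21 and 2.2 in neurons (pools 1 and 2). The difference of -0.25 ± 0.30 (log2, SE; limma adjusted p = 0.909) was within the spread between pools, and its 95% interval was -0.92 to 0.42. Cux1 and Cux2, often used together as upper layer markers, were both detected in 24 of 95 neurons, and 46 neurons had Cux1 alone, 9 had Cux2 alone and 16 had neither.

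Pou3f1 was detected in 34 of 62 progenitors (54.8%), 35 of 49 newborn neurons (71.4%) and 56 of 95 neurons (58.9%). Its highest cells reached 132 TPM among progenitors, 166 TPM among newborn neurons and 207 TPM among neurons, and its medians were 14.7, 24.8 and 20.3 TPM. The mean log2 level of progenitors, 3.47 in pool 1 and 3.38 in pool 2, was below that of newborn neurons, 4.29 and 3.96, and the pool values of the 2 classes did not overlap. Even so, the difference of -0.71 ± 0.46 (log2, SE) had a limma adjusted p of 0.680 and a 95% interval of -1.73 to 0.31.

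Pou3f2 was the member detected in the most progenitors, 55 of 62 (88.7%, interval 78.1 to 95.3%). It was detected in 40 of 49 newborn neurons (81.6%, 68 to 91.2%) and in 70 of 95 neurons (73.7%, 63.6 to 82.2%). Its median level was 27 TPM in progenitors (highest cell 249 TPM), 46.9 TPM in newborn neurons (273 TPM) and 35.6 TPM in neurons (535 TPM). Detection and level therefore did not run in the same order. The mean log2 level was 5.02 and 4.59 in progenitors, 4.94 and 5.21 in newborn neurons, and 4.62 and 4.75 in neurons (pools 1 and 2). The difference between progenitors and neurons was 0.12 ± 0.48 (log2, SE; limma adjusted p = 0.987), with opposite signs in the 2 pools.

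Pou3f3, by contrast, was detected in the largest share of newborn neurons, 43 of 49 (87.8%, interval 75.2 to 95.4%), against 66 of 95 neurons (69.5%, 59.2 to 78.5%). In progenitors it was detected in 47 of 62 cells (75.8%, 63.3 to 85.8%). By pool, the newborn share was 84% and 91.7%, against 69.6% and 69.2% in neurons. The mean log2 level of newborn neurons, 4.34 in pool 1 and 4.62 in pool 2, was above that of neurons, 3.93 and 3.64, in each pool. The difference was 0.70 ± 0.48 (log2, SE; 95% interval -0.35 to 1.75), which did not pass the test (limma adjusted p = 1).

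Rorb was detected in 9 of 62 progenitors (14.5%, interval 6.86 to 25.8%), 4 of 49 newborn neurons (8.16%, 2.27 to 19.6%) and 6 of 95 neurons (6.32%, 2.35 to 13.2%). Its highest cells reached 78.8 TPM among progenitors, 85.7 TPM among newborn neurons and 62.3 TPM among neurons. Some cells counted as detected lay close to the floor, with a log2(TPM + 1) of 1.510 in a radial glia-gated cell and 1.683 in a neuron. Among neurons 3 cells of each pool were above the floor. It was detected in 0 of 15 other cells, which allows a share of up to 20% of cells with Rorb above the floor when set at 3 cells, and up to 21.8% by the exact interval. With so few cells, the difference between progenitors and neurons of 0.14 ± 0.13 (log2, SE; limma adjusted p = 0.860) describes cells at the floor more than cells with Rorb.

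**Figure D2:**
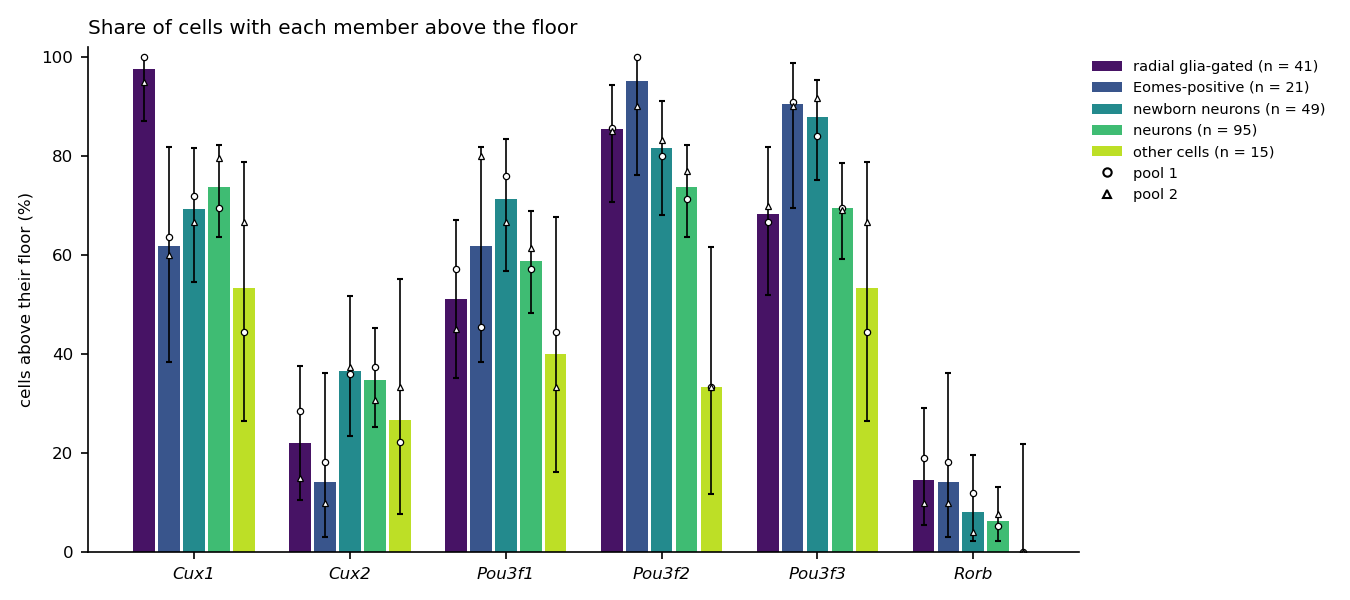
Percentage of cells in which each member was above the floor, by class; bars are both pools together with exact 95% intervals, circles pool 1 and triangles pool 2. The Cux1 bars stand at 97.6% for radial glia-gated and 61.9% for Eomes-positive progenitors, and Pou3f2 was detected in 33.3% of other cells, against 73.7 to 95.2% in the remaining classes.

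The question put by the classes is whether these upper layer factors differ between progenitors, newborn neurons and the remaining neurons at E18.5. The gates do not show the age of the neurons. Over the 10735 genes tested with limma on class means per pool, calls needed a log2 difference of 1 or more with an adjusted p under 0.05. Between progenitors and neurons 127 genes were called, 1.18% of those tested, and 0 of the 6 members were among them. Between newborn neurons and neurons 0 genes were called (0%), with 157 genes and 0 members at an unadjusted p below 0.05. Between progenitors and newborn neurons 133 genes were called (1.24%), again with 0 of 6 members. The median difference of the members was 0.13, 0.15 and -0.26 (log2) in these 3 comparisons, and that of all genes tested was 0.08, 0.02 and 0.05. In each of these comparisons 0 members reached an unadjusted p below 0.05. The widest 95% interval, that of Cux1, ran from -1.17 to 1.74 between progenitors and neurons. Differences of more than 1 in mean log2(TPM + 1) in either direction thus lay within it. With 2 pools per class and 4 residual degrees of freedom, a missed threshold does not show that the levels were alike.

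**Figure D3:**
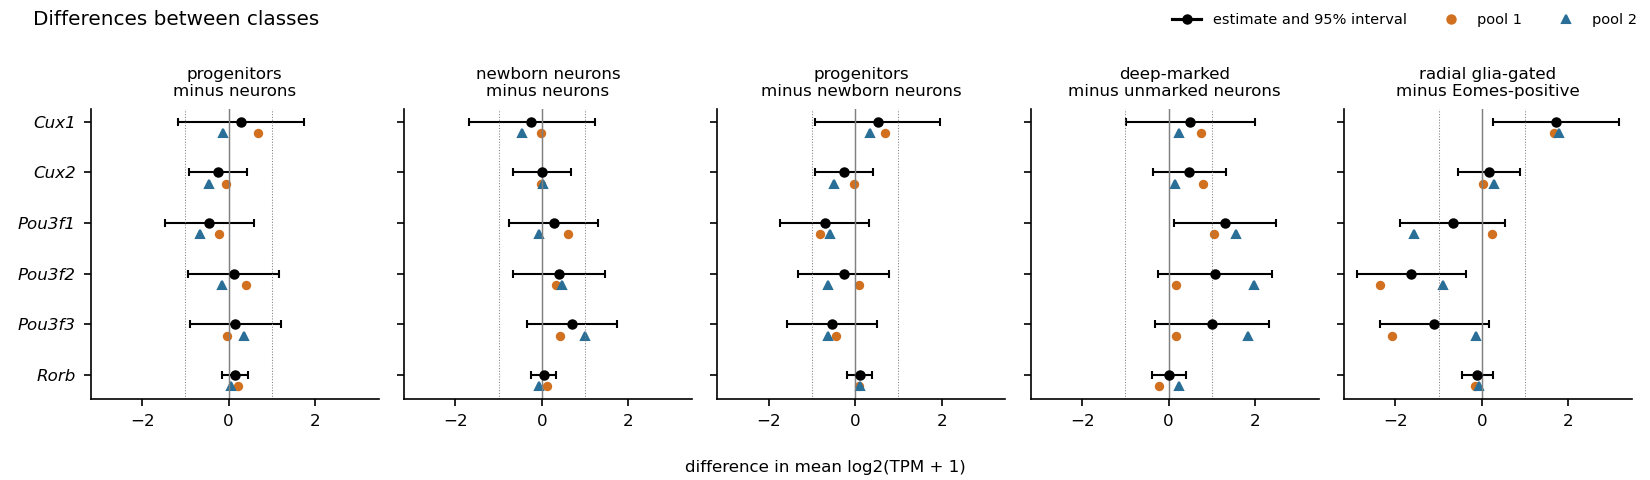
Difference in mean log2(TPM + 1) of each member in 5 comparisons, the first-named class minus the second; black points are the limma estimates with 95% intervals, orange circles pool 1, blue triangles pool 2, and dotted lines mark -1 and 1. The intervals of Cux1 and Pou3f2 lie on opposite sides of 0 between radial glia-gated and Eomes-positive progenitors, and that of Pou3f1 lies above 0 between deep-marked and unmarked neurons, but adjusted p was 0.295 or more for all members in all 5.

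The same fit did call some genes of other lists between progenitors and neurons. Besides cell cycle genes, it called 1 of 14 tested neuronal maturation genes (Stmn2). Of 10 tested neurogenic and migration genes, 1 was higher in progenitors (Rnd3) and 1 lower (Tubb3). Of 12 cell cycle genes, 6 were higher in progenitors than in neurons and 0 were lower, among them Ccnd2, a D-type cyclin, with 3.02 ± 0.52 (log2, SE; limma adjusted p = 0.0226) and a mean of 242 TPM in progenitors against 31.4 TPM in neurons. The mitotic kinase Cdk1 was higher by 2.2 ± 0.38 (adjusted p = 0.0226). Birc5, a mitosis protein, averaged 319.9 TPM in progenitors against 3.15 TPM in neurons, and Ccna2, an S phase cyclin, 142 against 7.94 TPM. Stmn2, a stathmin of growing axons, was lower in progenitors by -2.77 on the scale of mean log2(TPM + 1) (adjusted p = 0.0142). Its mean TPM was 443 in progenitors and 1149.7 in neurons, and the log2 of these means per pool differed by -1.36, which was not called (adjusted p = 0.0825). Tubb3, neuronal beta tubulin, was also lower in progenitors, by -1.77 ± 0.34, while Rnd3, a small GTPase of migrating neurons, was higher, by 2.94 ± 0.42. All 7 of these calls were lost when the radial glia gate was set to 3 of 8 markers, when only Eomes-positive progenitors were used, and without trend and robust variances, where 2 genes in all were called. On the log2 of the mean TPM the calls of Ccnd2, Cdk1, Rnd3, Stmn2 and Tubb3 were lost (adjusted p 0.0513 to 0.114), and with quantile normalization those of Birc5 and Ccna2. Ccna2 was also lost with floor values set to 0, without interneuron-marked cells and without the 2 cells with microglia or oligodendrocyte precursor markers.

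Lists of genes with roles near those of the members gave no calls. Of 15 tested genes in a list of other upper layer and callosal genes, 0 were higher and 0 lower in each of the 5 comparisons, with a median difference of -0.23 (log2) between progenitors and neurons. For the deep layer and subplate list these were 0 of 12 (median 0.05), and 0 of 7 between deep-marked and unmarked neurons, where the 5 genes that define the classes were left out. For relatives of the POU, CUT and ROR families these were 0 of 5 (median 0.20). At an unadjusted p below 0.05 between progenitors and neurons there were 2, 4 and 1 genes of these lists, where 11% of all genes tested were at that level.

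Within the progenitors, the mean log2 levels of Cux1 and Pou3f2 differed between radial glia-gated and Eomes-positive cells, but neither difference was called. Radial glia are stem cells of the cortex, and Eomes marks intermediate progenitors, which arise from them. The split follows the gate, not Eomes alone, since 13 of the 41 radial glia-gated cells had Eomes at 10 TPM or more. This division was compared after the levels had been seen. Cux1 was detected in 40 of 41 radial glia-gated cells (97.6%, interval 87.1 to 99.9%), against 13 of 21 Eomes-positive cells (61.9%, 38.4 to 81.9%). The shares were 100% and 95% in radial glia-gated cells of pools 1 and 2, against 63.6% and 60% in Eomes-positive cells. Among cells with Cux1 the medians were 163 TPM in radial glia-gated and 153 TPM in Eomes-positive cells. Their order changed with the pool, at 145 TPM in radial glia-gated against 191 TPM in Eomes-positive cells of pool 1 and the other way round in pool 2, with 178 TPM in radial glia-gated cells. The mean log2 level was 7.12 and 6.45 in radial glia-gated cells, against 5.46 and 4.67 in Eomes-positive cells, without overlap of the pools. The difference was 1.72 ± 0.68 (log2, SE; 95% interval 0.26 to 3.17) and was not called (limma unadjusted p = 0.0239, adjusted p = 0.351). On the log2 of the mean TPM it was 0.58.

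Pou3f2 ran the other way. Its mean was 35.9 TPM in radial glia-gated cells and 91.2 TPM in Eomes-positive cells. It was detected in most cells of both, 35 of 41 and 20 of 21, but its median among cells with the gene was 20.6 TPM in radial glia-gated and 75 TPM in Eomes-positive cells. These medians were lower in radial glia-gated cells in both pools, at 20.2 TPM against 57.3 TPM in Eomes-positive cells of pool 2, and further apart in pool 1. The mean log2 level was 4.21 and 4.29 in radial glia-gated cells, against 6.57 and 5.19 in Eomes-positive cells. The difference of -1.63 ± 0.59 (log2, SE; 95% interval -2.89 to -0.37) was not called either (limma unadjusted p = 0.0152, adjusted p = 0.295). It was -2.36 in pool 1 and -0.90 in pool 2.

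Pou3f3 was detected in 28 of 41 radial glia-gated cells (68.3%) and 19 of 21 Eomes-positive cells (90.5%). Its difference was -2.07 in pool 1 and -0.14 in pool 2, which gave -1.11 ± 0.59 overall (log2, SE; limma adjusted p = 0.525). Pou3f1 had opposite signs in the pools, 0.23 and -1.57. Between these classes 92 genes were called (0.857%), and 0 of the 6 members were among them, while 2 members (Cux1 and Pou3f2) were at an unadjusted p below 0.05, where 11.1% of all genes tested were. Called genes of the lists were Mcm3 (a replication helicase subunit; 1.76 ± 0.31) and the cyclin Ccnd1 (1.34 ± 0.28), higher in radial glia-gated cells, and the somatostatin receptor Sstr2 (-3.90 ± 0.80), lower there. Of 18 alternatives, the call was lost in 9 for Ccnd1 (adjusted p up to 0.141), in 6 for Sstr2 (up to 0.636) and in 3 for Mcm3 (up to 0.280), and with the gate of 3 markers 0 genes were called.

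Several measures moved with this division. Neurod6 had a median of 619 TPM in radial glia-gated and 2059.9 TPM in Eomes-positive cells, and Neurod1 was at 10 TPM or more in 6 of 41 and 14 of 21. The limit of 100 TPM for Neurod6 was reached in 30 of 41 and 20 of 21. Eomes was at 10 TPM or more in 13 of 41 radial glia-gated cells and, by definition, in 21 of 21 Eomes-positive cells. The letter A or B in the cell names, whose meaning the labels do not give, was A for 31 and B for 10 radial glia-gated cells, against 11 and 10 Eomes-positive cells. Detected genes per cell had medians of 4338 and 4190.0. With pool and letter together as the unit, Cux1 differed by 1.68 and Pou3f2 by -2.04 (log2). When Eomes-positive cells with Neurod1 were moved to the newborn neurons, Pou3f2 differed by 0.31, with the Eomes-positive progenitors represented by pool 2 alone. Without the 13 radial glia-gated cells that had Eomes, Cux1 differed by 1.73 (limma adjusted p = 0.326) and Pou3f2 by -2.01 (adjusted p = 0.165). Without the 2 cells with microglia or oligodendrocyte precursor markers these were 1.75 (adjusted p = 0.355) and -1.59 (adjusted p = 0.327). The part of these measures in the differences was not tested further. Among the 12 progenitors without Neurod6 at 100 TPM, 12 had Cux1 and 9 had Pou3f2 above the floor, with means of 131 and 21.2 TPM.

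The members are named for upper layers, so neurons with and without deep layer genes were also set against each other. Deep-marked neurons (13 cells, 7 and 6 per pool) had at least 2 of Fezf2, Foxp2, Tle4, Bcl11b and Tbr1 at 10 TPM or more, and unmarked neurons (45 cells, 23 and 22 per pool) had none. The mean log2 level of all 6 members was higher in deep-marked than in unmarked neurons, for Rorb by only 0.01. The mean TPM of Rorb was lower in deep-marked neurons, at 2.91 against 4.08 TPM. The median difference was 0.76 (log2) over the members and 0.01 over the 10730 genes tested. In this comparison 0 genes were called (0%) and 762 (7.10%) were at an unadjusted p below 0.05, Pou3f1 among them.

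Pou3f1 was detected in 10 of 13 deep-marked neurons (76.9%, interval 46.2 to 95%), against 27 of 45 unmarked neurons (60%, 44.3 to 74.3%). Its mean was 52.6 and 72.8 TPM in deep-marked neurons of pools 1 and 2, against 24.7 and 37.9 TPM in unmarked neurons. The difference of 1.30 ± 0.55 (log2, SE; 95% interval 0.12 to 2.48) had a limma unadjusted p of 0.0335 and an adjusted p of 0.681. Pou3f2 (1.07 ± 0.62) and Pou3f3 (1.01 ± 0.62) had differences of 0.17 and 0.18 in pool 1 and of 1.98 and 1.84 in pool 2, so their size rested on pool 2. Cux1 (0.50 ± 0.70) and Cux2 (0.47 ± 0.40) were above 0 in both pools. Cux2 was detected in 6 of 13 deep-marked and 16 of 45 unmarked neurons. Rorb was detected in 1 of 13 and 3 of 45. The upper layer factors were thus also detected in the neurons with deep layer genes. The 5 deep layer genes define these classes, so their levels differ by definition. Foxp2 was at the floor in all unmarked neurons, and the summed level of the 5 genes ranged from 62.6 to 441 TPM in deep-marked and from 6.72 to 17.7 TPM in unmarked neurons. Median Neurod6 was 2209 TPM in deep-marked and 1607 TPM in unmarked neurons. By pool it was 1648 against 1663 TPM in pool 1 and 2575 against 1527 TPM in pool 2. The letter in the cell names was A for 5 and B for 8 deep-marked neurons, against 29 and 16 unmarked neurons. The part of these measures in the differences was not tested.

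The 3 Pou3f genes were often detected in the same cell. All 3 were above the floor in 28 of 62 progenitors (45.2%), 27 of 49 newborn neurons (55.1%) and 38 of 95 neurons (40%). Cells with none of them numbered 2 progenitors, 1 newborn neuron and 8 neurons. Over all cells, the commonest pair without the third was Pou3f2 with Pou3f3 (40 cells), ahead of Pou3f1 with Pou3f2 (14) and Pou3f1 with Pou3f3 (12). Pou3f1 was also the least often detected of the 3 genes over all cells. Numbers expected from the detection of each gene alone were not computed. Over the 221 cells, Pou3f3 was detected in 80% of the cells with Pou3f2 and in 54.9% of the cells without it. These shares were 76.4% and 71.4% in progenitors, 92.5% and 66.7% in newborn neurons, and 77.1% and 48% in neurons. Few progenitors and newborn neurons lacked Pou3f2.

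**Figure D4:**
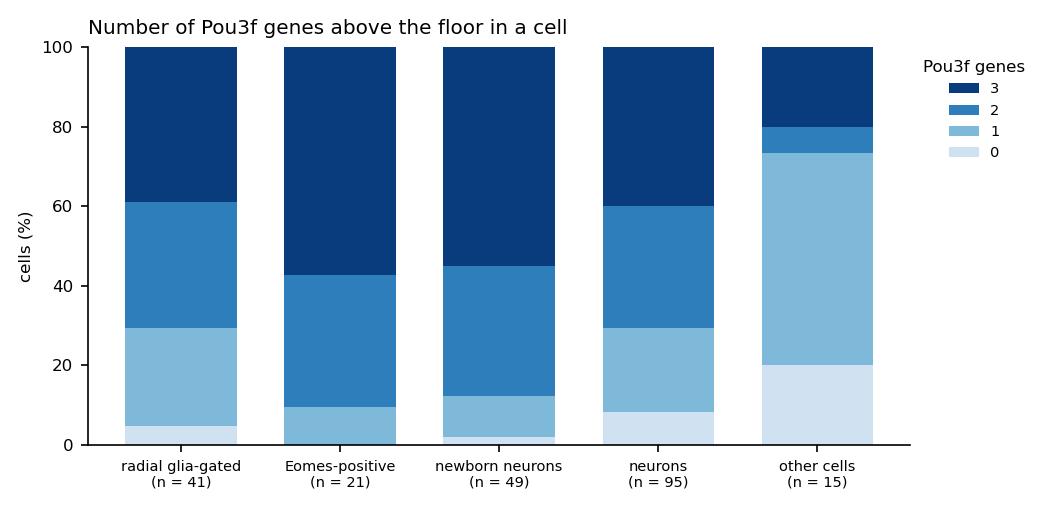
Share of the cells of each class in which 0, 1, 2 or 3 of the Pou3f genes were above the floor, stacked to 100%. All 3 were above the floor in 57.1% of Eomes-positive and 55.1% of newborn cells, against 39% of radial glia-gated cells, 40% of neurons and 20% of other cells.

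Counting all 6 members, the median cell had 3 above the floor in progenitors, 4 in newborn neurons and 3 in neurons. By pool, the mean number was 3.5 and 3.27 in progenitors, 3.60 and 3.5 in newborn neurons, and 3.11 and 3.26 in neurons. All 6 were above the floor in 3 of 221 cells and none in 4.

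Correlations over cells are given as descriptions, since the cells of a pool share animals, a library protocol and an unknown depth. Across the 95 neurons the highest Pearson r of log2(TPM + 1) were 0.33 for Cux1 with Pou3f2 (0.37 and 0.25 in pools 1 and 2) and 0.32 for Pou3f2 with Pou3f3 (0.26 and 0.41). Pou3f1 had an r of 0.27 with Pou3f2 and 0.25 with Pou3f3. Cux1 with Cux2 had an r of only 0.13, and it was 0.31 in pool 1 and -0.12 in pool 2. In progenitors, Pou3f2 with Pou3f3 had the highest r, 0.39, made of 0.67 in pool 1 and 0.11 in pool 2, while Cux1 with Pou3f2 had -0.02, made of -0.33 in pool 1 and 0.23 in pool 2. In newborn neurons Cux1 had an r of 0.43 with Pou3f1 (0.17 and 0.64 in pools 1 and 2) and with Pou3f2 (0.53 and 0.35). The number of genes detected per cell had an r of 0.27 with Cux1 and 0.11 to 0.15 with the other members across neurons. Neurod6 had an r of 0.42 with Pou3f2 and of 0.20 or less with the others there.

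**Figure D5:**
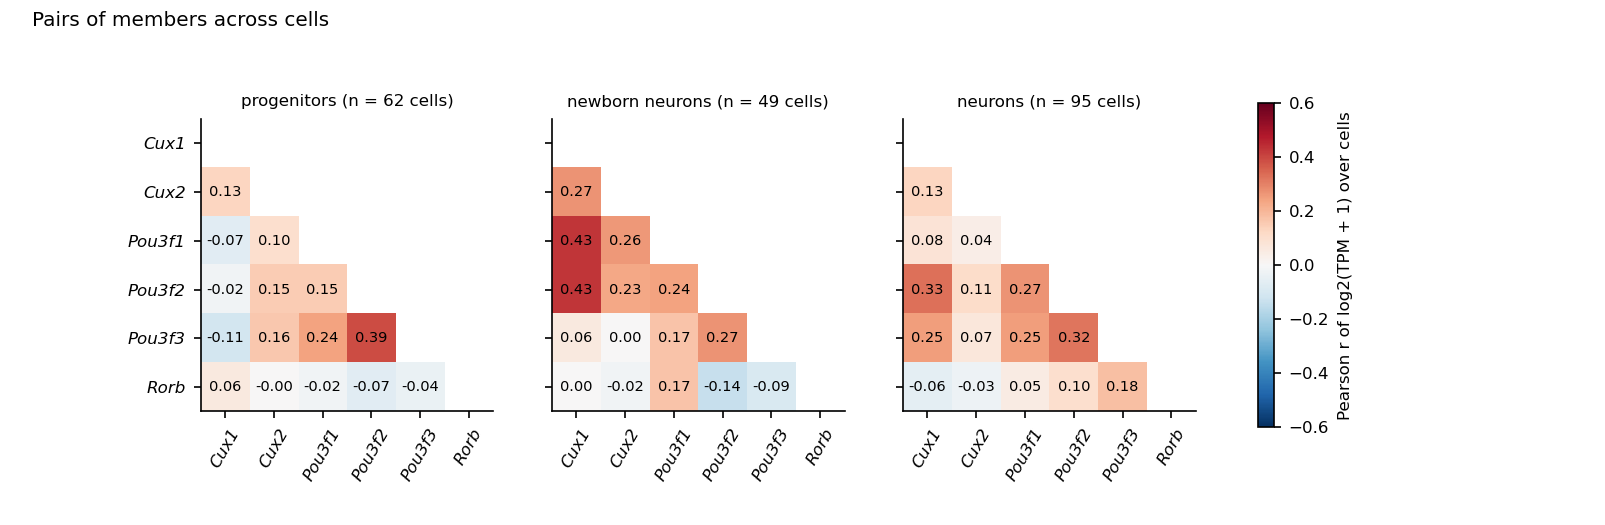
Pearson r of log2(TPM + 1) over cells for each pair of members, in progenitors, newborn neurons and neurons; red is positive and blue negative. Pou3f2 with Pou3f3 is positive in all 3 classes (0.39, 0.27 and 0.32), and Cux1 with Pou3f2 is -0.02 in progenitors, with opposite signs in the pools (-0.33 and 0.23), and positive in the neuronal classes (0.43 and 0.33).

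Among 9318 genes, those with a pattern most like Pou3f2 over the 221 cells were Igfbpl1, an IGF-binding protein-like gene of young neurons (r = 0.47), the long noncoding RNA Pantr1 (0.47; listed under its older symbol 2610017I09Rik) and Mn1, a transcriptional coregulator (0.46). Igfbpl1 was also first for Pou3f3 (0.38), followed by the FERM protein gene Frmd4b (0.38) and Tsc22d1 (0.37). For Pou3f1 they were Zbtb18 (listed as Zfp238), a transcriptional repressor that acts in neuronal development (0.37), the RNA-binding protein gene Khdrbs3 (0.36) and Neurod2 (0.35). For Cux1 no gene exceeded 0.29, the value of Dpy19l1, and next came Mfap1a and Mfap1b (0.28 and 0.27), near-identical copies whose reads may be shared. For Cux2 the highest were Fbxo21 (0.30), Rmnd5b (0.30) and the AMPA receptor gene Gria1 (0.29). For Rorb, detected in 19 cells, they were N4bp2l1 (0.35, but 0.04 in pool 1 and 0.76 in pool 2), Bcl9l (0.32) and Dusp6 (0.31).

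Pantr1 was looked at further once it had appeared beside Pou3f2, because it lies next to Pou3f3. It runs on the minus strand at chr1:42590782-42694842 and starts 926 bases before the start of Pou3f3, with the promoter shown above between them. Its r was 0.34 with Pou3f3 and 0.47 with Pou3f2, which is on another chromosome, over the 221 cells. By pool these were 0.37 and 0.29 with Pou3f3, and 0.55 and 0.33 with Pou3f2. The RNA was abundant, above the floor in 219 of 221 cells. Its mean level was 2364 TPM in radial glia-gated cells, 2468 TPM in Eomes-positive cells, 1968 TPM in newborn neurons, 1741 TPM in neurons and 759 TPM in other cells. Pou3f3 had means of 26.3, 42.7, 36.2, 28.4 and 11.8 TPM in the same classes.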

How the data were processed

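The authors deposited one value per gene and cell in TPM. Per the submitters' processing notes, the build was mm10 and the tools were Cufflinks 2.2.1, TopHat2 2.0.14 and Bowtie2 2.2.6 (roles not given in the sources used here), and per the labels cells were captured on Fluidigm C1, with SMARTer v4 cDNA and Nextera XT libraries. A second deposited table holds the same values and was not used. The values of each cell sum to 1000000, and none is 0. Read counts and depth are not in the files used.

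From these TPM values, log2(TPM + 1) was averaged per class and pool (at least 4 cells each). A gene entered the comparison when 10 or more cells had it above the floor. The test was limma 3.58.1 under R 4.3.3 (lmFit, eBayes with trend and robust variances), two-sided, with Benjamini-Hochberg adjustment over all genes tested, and the genes that define the classes were left out. The pool pairs the classes by design, since one pool is one set of animals. The deviations of the pools correlated by 0.062 or less between progenitors, newborn neurons, neurons and other cells, and the model had no block. Cell names repeat the same codes in both pools, so separate plates or runs are possible, which the labels used here do not state. Any such difference cannot be told apart from that between the animals of the pools. The p-values measure the spread between the 2 pools. In a check, neurons of these data were divided at random and known changes were added to some genes. The fit made no call among unchanged genes but called only a minority of the changed ones. Part of the added changes had the size of the limit of 1 (log2), so their calls also hung on that limit. Numbers of cells per class differed from those compared, so the check does not give the power of the comparisons. With 2 pools per class, missed calls carry little weight. The radial glia gate of at least 4 of 8 markers was set for this work. The members, classes and gene lists were chosen with earlier results of these data known. Named were all 6 members, up to 4 called genes with the largest differences per list and comparison, and the 3 genes with the highest Pearson r to each member. Pantr1 and Zbtb18 were matched to older symbols through the RefSeq gene table. Other steps used Python 3.11.15, pandas 2.3.3, scipy 1.17.1 and matplotlib 3.10.9. The alternatives tried are given with their effect in the closing section.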

Additional observations from a re-analysis of the deposited data

How the results depend on the processing

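None of the 6 members was called in any comparison under any alternative. Their signs were less stable, and no reversed value below was called. Between progenitors and neurons, Pou3f2 changed sign at a pseudocount of 10 (-0.04), on the log2 of the mean TPM (-0.33), with quantile normalization (-0.10), with a gate of 3 of 8 radial glia markers (-0.12), with Eomes-positive cells that had Neurod1 counted as newborn (-0.42), at a Neurod6 limit of 500 TPM (-0.09), without interneuron-marked cells (-0.17), without progenitors with Neurod6 (-0.77) and with radial glia-gated progenitors only (-0.43). Pou3f3 did so with quantile normalization (-0.06), by pool and letter (-0.15), with Eomes cells as newborn (-0.09), without progenitors with Neurod6 (-0.23) and with radial glia-gated cells only (-0.22). Cux1 did so on the log2 of the mean TPM (-0.30), with the gate of 3 (-0.17) and with Eomes-positive cells only (-0.86), where Pou3f1 was at 0.01. Between progenitors and newborn neurons, Cux1 was -0.24 on the log2 of the mean TPM, and with Eomes-positive cells only Cux1 was -0.62, Pou3f2 0.80 and Pou3f3 0.19. Between newborn neurons and neurons, Cux2 was -0.12 with Eomes cells as newborn, -0.01 at the Neurod6 limit of 500 TPM and with quantile normalization, -0.03 with a gate of 5 markers and -0.17 without interneuron-marked cells, where Pou3f1 was -0.03. At a Neurod1 limit of 50 TPM, Cux1 was 0.23 and Rorb -0.02. Between deep-marked and unmarked neurons, Cux1 was -0.19 at the Neurod1 limit of 50 TPM and -0.13 with the gate of 3. Rorb there was -0.40 on the log2 of the mean TPM, -0.02 at a pseudocount of 10 and at the Neurod6 limit of 500 TPM, and -0.01 with the gate of 5, weighted by cells and without interneuron-marked cells. Between radial glia-gated and Eomes-positive cells, Pou3f2 was 0.31 with Eomes cells as newborn, Rorb 0.22 on the log2 of the mean TPM and 0.13 by pool and letter, and Cux2 -0.14 with the gate of 5 and -0.03 without interneuron-marked cells.

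With either pool left out in turn, the lowest and highest differences were -0.13 and 0.69 for Cux1, -0.16 and 0.40 for Pou3f2 and -0.04 and 0.36 for Pou3f3 between progenitors and neurons. They were -0.01 and 0.03 for Cux2, -0.07 and 0.61 for Pou3f1 and -0.06 and 0.13 for Rorb between newborn neurons and neurons, and -0.62 and 0.08 for Pou3f2 between progenitors and newborn neurons. For Rorb between deep-marked and unmarked neurons they were -0.23 and 0.25, and for Pou3f1 between radial glia-gated and Eomes-positive cells -1.57 and 0.23. The other members kept their sign.

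Calls over all genes moved far more. Between progenitors and neurons (127) they numbered 203 with Eomes cells as newborn, 225 at the Neurod6 limit of 500 TPM, 2 without trend and robust variances, 62 on the log2 of the mean TPM, 82 at a pseudocount of 10, 57 with quantile normalization, 0 with the gate of 3, 616 weighted by cells, 492 without progenitors with Neurod6, 251 with radial glia-gated and 0 with Eomes-positive cells only. Between progenitors and newborn neurons (133) the same settings gave 8 without trend and robust variances, 72 on the log2 of the mean TPM, 81 at a pseudocount of 10, 53 with quantile normalization, 17 with the gate of 3, 349 weighted by cells, 464 without progenitors with Neurod6, 225 with radial glia-gated and 0 with Eomes-positive cells only. Between deep-marked and unmarked neurons there were 2 by pool and letter. Between radial glia-gated and Eomes-positive cells (92) there were 381 with Eomes cells as newborn, 18 without trend and robust variances, 144 with floor values set to 0, 61 with genes above the floor in 20 cells, 52 on the log2 of the mean TPM, 55 with no filter beyond 1 cell, 149 by pool and letter, 0 with the gate of 3 and 152 with the gate of 5. The cause of these shifts was not tested. With pool as a replicate block, no member's call changed, and Cux1 and Pou3f2 had adjusted p of 0.369 and 0.307 between radial glia-gated and Eomes-positive cells. Without progenitors with Neurod6, progenitors were a single profile of pool 2, assumed to vary like the others, and radial glia-gated against Eomes-positive cells could not be fitted. Rorb has no value with genes above the floor in 20 cells. At 10 TPM or more in place of the floor, the share was 11.3% for Cux2 in progenitors, 16.3% for Cux2 in newborn neurons, 20% for Cux2 in neurons, 59.7% for Pou3f3 in progenitors and 55.8% for Pou3f3 in neurons. As rank correlations across neurons, Cux2 with Rorb was 0.52, Cux2 with Pou3f1 0.09, and Rorb with Cux1, Pou3f1 and Pou3f3 0.06, 0.21 and 0.28; cells at the floor are ranked there by their floor. The comparison within the progenitors, the versions with only one kind of progenitor, and those without glia-marked cells or without Eomes in radial glia-gated cells were chosen after seeing the data. Depth is unknown, so a cell at the floor may still hold the transcript.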

Other observations

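Shares of cells with the members are given here for cells with and without interneuron markers. Interneurons reach the cortex from the ventral forebrain and use GABA. Of the 30 cells with at least 3 of 9 interneuron markers at 10 TPM or more, 10 had Pou3f2 above the floor (33.3%, exact 95% interval 17.3 to 52.8%), against 160 of the 191 cells without (83.8%, 77.8 to 88.7%). By pool these shares were 18.8% and 50% in marked cells, against 84% and 83.5% in unmarked cells. Pou3f1 was above the floor in 30% of marked and 63.9% of unmarked cells. Cux2 ran the other way, with 15 of 30 marked cells (50%, 31.3 to 68.7%, and 50% in each pool) against 52 of 191 unmarked cells (27.2%, 21 to 34.1%). Its median was 2.28 TPM in marked and 1.88 TPM in unmarked cells, both near the floor. Cux1 was above the floor in 19 of 30 and 146 of 191, and Pou3f3 in 16 of 30 and 148 of 191. Rorb was above the floor in 0 of 30 marked cells, which allows a share of up to 10% with Rorb above the floor when set at 3 cells and up to 11.6% by the exact interval, and in 19 of 191 unmarked cells (9.95%). The marked cells had a median of 3662 detected genes, against 4078 in the unmarked cells and 4035 over all cells. Of the 30, 17 had Neurod6 at 100 TPM or more. These shares were compared after the data had been seen and were not tested, and the part of mixed cells in them was not tested.

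Of the 5 deep layer genes, those at 10 TPM or more numbered at least 2 in 13 neurons, exactly 1 in 37 and none in 45, and Cux1 was above the floor in 11 of 13, 26 of 37 and 33 of 45 of them. Pou3f3 was above the floor in 11 of 13, 28 of 37 and 27 of 45.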
